A study of Mus musculus with 12 samples.

Results

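The proteasome genes of mouse skeletal muscle were taken as the genes whose symbol begins with Psma, Psmb, Psmc, Psmd, Psme, Psmf or Psmg, without the 2 pseudogene symbols that end in -ps. They numbered 50 of the 26570 genes in either of the 2 deposited count tables, and all 50 were in both. By known role, 14 encode the constitutive 20S core (7 alpha and 7 beta subunits) and 17 the 19S regulatory particle (9 in its base and 8 in its lid), 31 genes of the standard 26S proteasome in all. A further 3 encode the inducible beta subunits of the immunoproteasome, 3 the chaperones that assemble the base, 4 the chaperones that assemble the core, and 6 the activators and the inhibitor that bind the core. Psma8 is a testis form of an alpha subunit, and Psmc3ip and Psme3ip1 meet the symbol rule without being subunits. The 50 genes lie on 16 chromosomes, so they are not one linked block.

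The 26S proteasome degrades proteins that carry ubiquitin chains. Its barrel-shaped 20S core holds the protease sites on beta subunits inside the barrel, and the 19S particle recognises ubiquitin, removes it, unfolds the substrate and feeds it into the core. In skeletal muscle this pathway is known for breaking down contractile proteins during fasting, disuse and disease, together with the muscle ubiquitin ligases Fbxo32 (atrogin-1) and Trim63 (MuRF1). In mammals the transcription factor NRF1, encoded by Nfe2l1, is known to raise the transcription of many 26S genes when the proteasome is impaired, whereas interferon raises the immunoproteasome subunits.

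The 12 RNA-seq libraries fell into 4 groups of 3, all from pieces of skeletal muscle of the mouse strain C57BL/6N, and the labels do not name the muscle sampled. PCN mice ate a high-fat diet for 18 weeks from the age of 6 weeks and then had PCN, 50 mg/kg, injected into the peritoneum once daily for 4 days; PCN is pregnenolone carbonitrile, a rodent activator of the pregnane X receptor. Vehicle mice had the same diet and the same injections of the carrier, corn oil with 30% DMSO. HFD mice had the same diet and no injection, and Chow mice had regular chow and no injection. No library is said to come from a separate mouse, so p-values measure the spread between these samples. In bulk muscle, fewer cells of a type and less RNA per cell cannot be told apart.

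Total counts per library ran from 12770308 (Chow 8) to 19739226 (PCN 27). The muscle markers Acta1, Ckm, Mb, Ttn and Des were detected in all 12 libraries, as the tissue label requires. Levels are given as CPM, that is, counts per 1000000 of the TMM-scaled library total, and the 3 values of a group are in the order PCN 5, 11 and 27, Vehicle 15, 23 and 55, HFD 4, 30 and 38, and Chow 8, 17 and 19. PCN 27 stood apart from the other libraries: it was the highest of the 12 for 18.9% and the lowest for 15.5% of 13375 genes, against 4.09% to 10.01% and 5.13% to 10.7% in the others. The comparison of PCN with Vehicle is given below with and without it.

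The genes of the assembled 26S particle were read at far higher levels than the assembly chaperones among the members and than the immunoproteasome subunits. Per kilobase of the principal transcript, the median over 12 libraries ran from 15.3 CPM per kb (Psma2) to 58.9 (Psma4) among alpha subunits and from 20.1 (Psmb5) to 129 (Psmb6) among constitutive beta subunits. In the base it ran from 38.4 (Psmc6, an ATPase of the unfolding ring) to 99.4 (Psmd4, a ubiquitin receptor), and in the lid from 15.1 (Psmd13) to 129 (Psmd8). The 3 base chaperones lay between 2.41 and 3.95 CPM per kb and the 4 core chaperones between 1.13 (Psmg3) and 5.84 (Psmg1). Pomp, a core assembly factor outside the symbol rule, was not low. It ran from 18.5 to 31.7 CPM over the 12 libraries, against 12.3 to 20.9 CPM for Psmb5. The immunoproteasome subunits were the lowest of the beta subunits, with 0.287 (Psmb9) to 2.48 (Psmb10) CPM per kb.

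**Figure D1:**
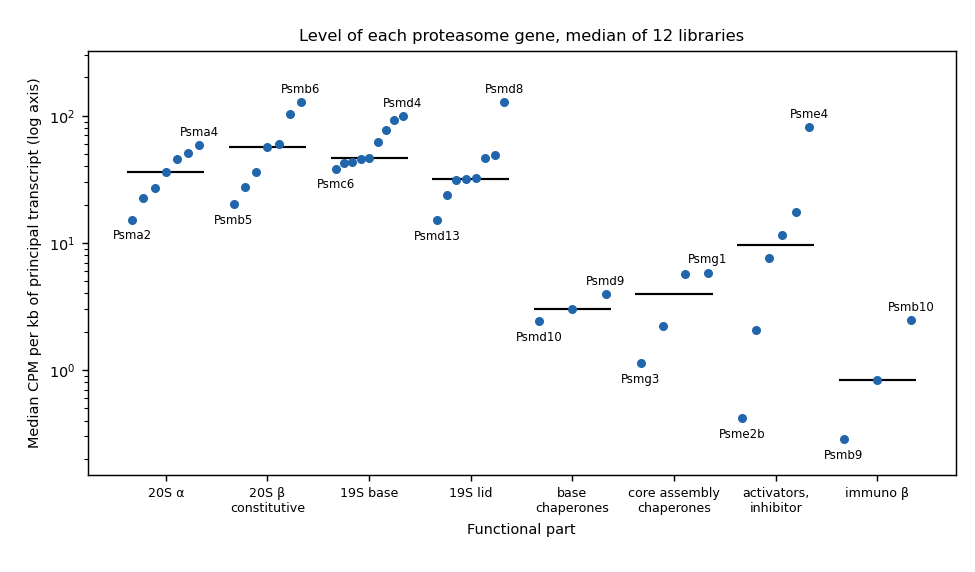
Level of each of the 47 subunit, chaperone, activator and inhibitor genes apart from the testis form, as the median over 12 libraries in CPM per kb of the principal transcript (log axis), by functional part; bars are the median of a part. The constitutive 20S and 19S parts lie at part medians of 31.97 to 56.8 CPM per kb, and the immunoproteasome part lies at 0.831.

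PCN 27 was the highest library for all 31 genes of the 26S particle, against 18.9% of all genes, and 28 of the 31 had a higher fitted level in Vehicle than in HFD, against 49.9% of all genes. The median over the 31 genes of the log2 level relative to each gene's own median was 0.19, 0.12 and 0.82 in PCN, against 0.08, 0.24 and -0.01 in Vehicle, -0.14, -0.22 and -0.33 in HFD and -0.04, -0.01 and -0.41 in Chow. PCN 27 was the highest library, Chow 19 the lowest, and all 3 HFD libraries lay below all 3 Vehicle libraries. The medians of the alpha, constitutive beta, base and lid parts each followed this order of Vehicle above HFD. In the base the order held by little, with Vehicle 55 at -0.0356 and HFD 4 at -0.0378. The 3 immunoproteasome genes had medians of 0.34, 0.08 and -0.10 in PCN, against 0.02, -0.04 and 0.04 in Vehicle, -0.30, -0.52 and 0.58 in HFD and -0.28, -0.23 and 0.44 in Chow, with HFD 38 and Chow 19 the highest. The summed counts of the 50 genes made up 0.646% of the nuclear-encoded counts in PCN 27 and between 0.281% (Chow 19) and 0.46001% (PCN 5) in the other libraries.

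**Figure D2:**
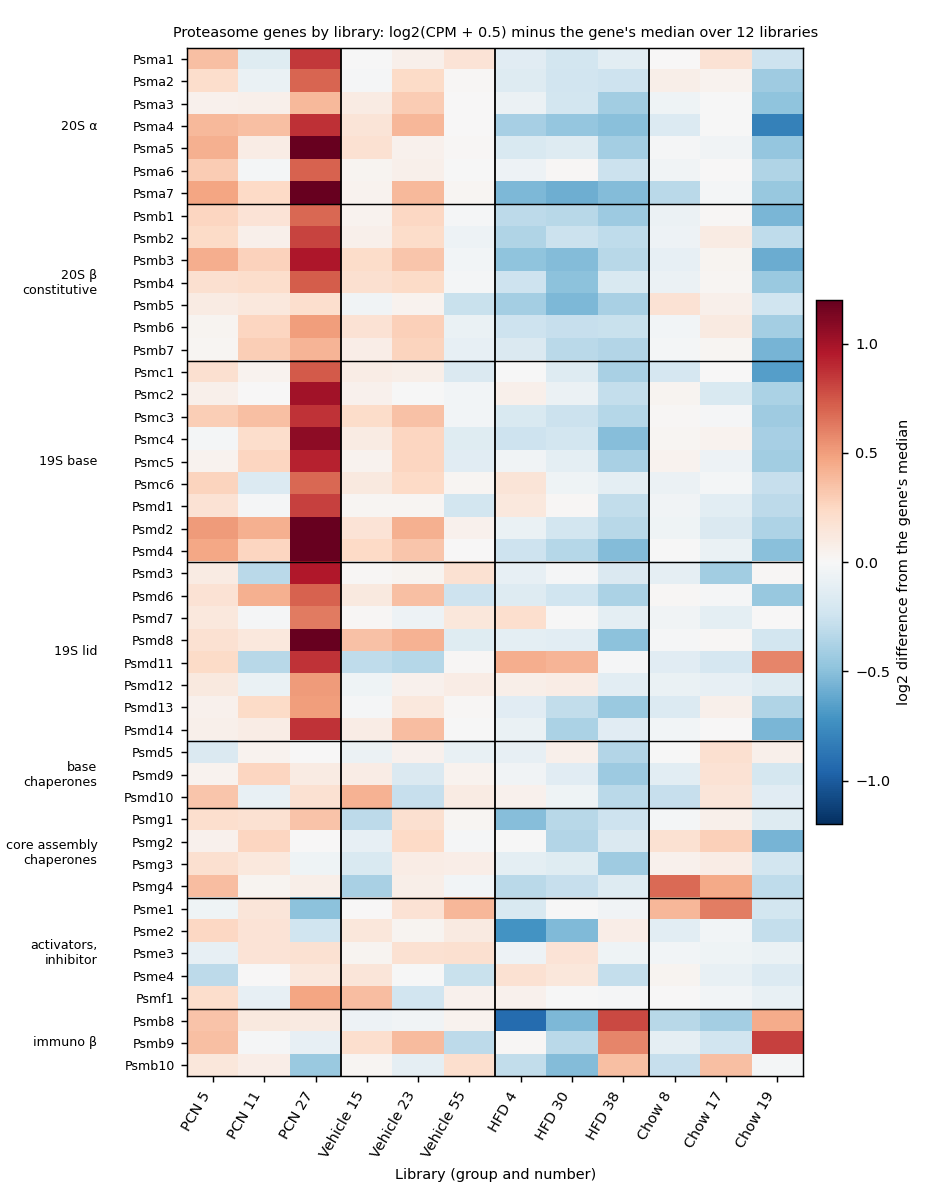
Heat map of 46 proteasome genes (rows, by functional part) in the 12 libraries (columns). Colour is log2(CPM + 0.5) minus the gene's median over the 12 libraries; PCN 27 is red for all 31 constitutive 20S and 19S genes, most of them are blue in the HFD libraries and in Chow 19, and the immunoproteasome genes do not follow that order.

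Whether a gene differed anywhere among the 4 groups was asked in 1 fit over the 12 libraries with edgeR's quasi-likelihood F test. No proteasome gene passed the Benjamini-Hochberg adjusted p threshold of 0.05 over 13375 genes, which 0.179% of all genes did. Psma7, an alpha subunit of the core (chromosome 2, 180036374 to 180042433), came nearest, with an adjusted p of 0.0529. At an unadjusted p under 0.05 there were 22 of 48 tested members, against 15.5% of all genes. These were 4 of 7 alpha, 7 of 7 constitutive beta, 6 of 9 base and 4 of 8 lid genes, and the core chaperone Psmg1. None was an immunoproteasome gene (0 of 3 tested) or an activator or inhibitor (0 of 5 tested). The count was 11 without PCN 27 (13.1% of all genes under the same setting), 14 without HFD 30 (11.1%), 14 without HFD 38 (13.2%) and 12 with an offset for exonic gene length (13.9%). By DESeq2's likelihood ratio test 10 members passed the adjusted threshold, as did 5.73% of all genes: Psma4, Psma5 and Psma7 of the alpha ring, Psmb1, Psmb3 and Psmb4 of the beta ring, Psmc3, Psmd2 and Psmd4 of the base, and Psmd6 of the lid.

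**Figure D3:**
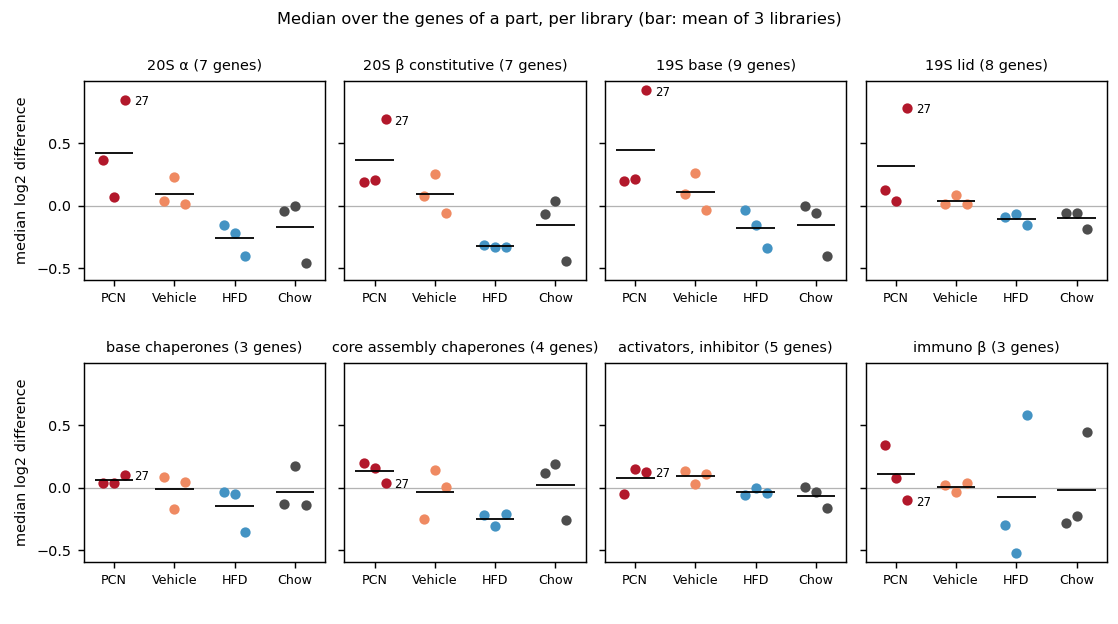
Median over the genes of each functional part, per library, of log2(CPM + 0.5) minus the gene's median over 12 libraries; points are libraries, bars are the mean of 3 libraries, and PCN 27 is marked. In the 4 constitutive 20S and 19S parts PCN 27 lies above the other 11 libraries, whereas among the immunoproteasome genes HFD 38 and Chow 19 are the highest.

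The comparison of PCN with Vehicle asked what PCN did to the muscle of mice on the high-fat diet. All 31 of the 26S genes had a higher fitted level in PCN, as did 52.3% of all 12833 genes tested, but most of that difference lay in PCN 27. No proteasome gene passed the adjusted threshold (0% of all genes did), and 0 of 47 had an unadjusted p under 0.05, against 2.82% of all genes, of which 1.35% were higher in PCN. That count was 0 without PCN 27 (2.29% of all genes under the same setting), 6 without PCN 5 (3.87%) and 12 without PCN 11 (7.59%). The median log2 fold change was 0.33 for alpha, 0.26 for constitutive beta, 0.42 for base and 0.25 for lid genes, 0.33 over the 31 and 0.01 over all genes. Without PCN 27 these medians were 0.13, 0.08, 0.12 and 0.01, the median over the 31 genes was 0.09, and 24 of the 31 had a higher fitted level. Markers of other cells were not uniform in direction. Endothelial markers had a higher fitted level in PCN for 3 of 5 (median log2 fold change 0.10). Leukocyte markers did for 2 of 3 tested (0.12) and macrophage markers for 4 of 12 (-0.11). Lower fitted levels were found for 7 of 7 adipocyte (-1.196), 6 of 6 fibroblast (-0.65) and 5 of 5 erythroid markers (-0.62), with 0 past the adjusted threshold. Their summed levels were 107 to 134 CPM in PCN, against 102 to 334 CPM in Vehicle, for adipocytes, 274 to 459 CPM in PCN, against 341 to 485 CPM in Vehicle, for fibroblasts, and 63.7 to 76.2 CPM in PCN, against 44.8 to 214 CPM in Vehicle, for erythroid cells. Their part in the result was not tested.

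The 4 members with the lowest p in that comparison were a pair of base and a pair of alpha subunits. Psmd2, a scaffold of the base (chromosome 16, 20651652 to 20663414), was at 323, 305 and 535 CPM in PCN, against 254, 305 and 235 CPM in Vehicle, 214, 195 and 180.2 CPM in HFD and 218, 201 and 176 CPM in Chow. Psmd4, which binds ubiquitin chains (chromosome 3, 95032694 to 95042614), was at 183, 158 and 361 CPM in PCN, against 156, 166 and 133 CPM in Vehicle, 111, 104 and 92.4 CPM in HFD and 132, 125 and 93.4 CPM in Chow. For both, PCN 27 exceeded every other library, and PCN 11 overlapped the Vehicle range. The log2 fold change, PCN minus Vehicle, was 0.54 ± 0.24 for Psmd2 and 0.62 ± 0.30 for Psmd4 (SE; edgeR adjusted p = 0.998 for both), and without PCN 27 it was 0.25 and 0.17. Psma5 (chromosome 3, 108256926 to 108279974) was at 37.5, 29.6 and 65.2 CPM in PCN, against 31.5, 28.7 and 27.9 CPM in Vehicle, 24.4, 24.8 and 20.8 CPM in HFD and 27.5, 26.9 and 19.98 CPM in Chow. Psma7 was at 65.5, 55.5 and 111 CPM in PCN, against 48.3, 61.4 and 47.8 CPM in Vehicle, 32.04, 31.1 and 32.5 CPM in HFD and 37.4, 46.04 and 34.1 CPM in Chow. Both were higher in PCN 27 than anywhere else, with log2 fold changes of 0.58 ± 0.26 and 0.55 ± 0.25, which were 0.20 and 0.21 without that library.

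PCN 27 was the highest of the 12 libraries for 31 of 31 genes of the 26S particle, a position it held for 18.9% of all genes. It was so for only 2 of the 15 other tested subunit, chaperone, activator, inhibitor and immunoproteasome genes, Psmf1 and Psmg1. Sem1, a lid subunit outside the symbol rule and not among the 31, did not peak there. It was at 56.5, 65.5 and 49.8 CPM in PCN, against 57.5, 62.97 and 58.5 CPM in Vehicle. The level in PCN 27 divided by that in the highest of the other 11 libraries had a median of 1.41 over the 31 genes. It ran from 1.02 for Psmb5 to 1.97 for Psmd4 and exceeded 1.5 for 11 of them, which it did for 245 of all 13375 genes. Psmd8, a lid subunit with the highest level per kilobase of its part, was at 226, 218 and 461 CPM in PCN, against 254, 267 and 179 CPM in Vehicle, 184, 182 and 141 CPM in HFD and 197, 201 and 171 CPM in Chow. Psme1, which encodes a subunit of the 11S activator, ran the other way and was lowest in PCN 27, at 13.7 CPM.

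**Figure D4:**
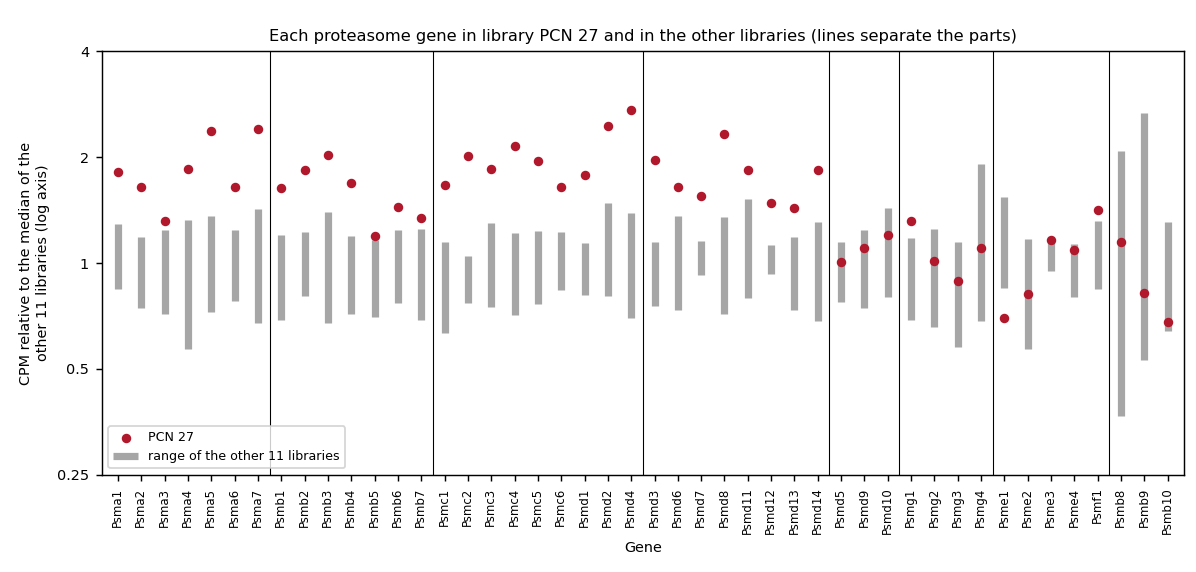
Level of each gene in PCN 27 (points) and the range of the other 11 libraries (grey bars), both divided by the median of those 11 libraries (log axis). The point lies above the bar for all 31 constitutive 20S and 19S genes, by the least for Psmb5, and below it for Psme1.

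Other genes of the pathway were also at their highest in PCN 27, as were 18.9% of all genes. Of 9 muscle ubiquitin ligases this held for Fbxo32, which was at 793, 502 and 3122 CPM in PCN, against 898, 618 and 801 CPM in Vehicle, 1366, 928 and 572 CPM in HFD and 1264, 718 and 728 CPM in Chow. Trim63 was at 288, 345 and 1295 CPM in PCN, against 609, 414 and 283 CPM in Vehicle, 1193, 789 and 529 CPM in HFD and 1306, 531 and 577 CPM in Chow, and Chow 8 exceeded PCN 27 for that gene. Ubb, one of the polyubiquitin genes, was at 176, 188 and 376 CPM in PCN, against 196, 216 and 199 CPM in Vehicle, 163, 138 and 149.996 CPM in HFD and 174, 157 and 129 CPM in Chow, with PCN 27 above every other library. Among proteasome-associated factors this held for 9 of the 16 in both tables, including Adrm1, a ubiquitin receptor of the 19S particle (96.6 CPM in PCN 27, at most 58.1 elsewhere), and Usp14, a deubiquitinase bound to it. It held for 9 of 16 genes of the NRF1 and NRF2 pathways, among them Nfe2l2, Ddi2, the protease that activates NRF1, and Vcp, the segregase that extracts it from the membrane. For these 3 genes PCN 27 exceeded the highest other library by little, with ratios of 1.12, 1.04 and 1.10. Over the 9 genes the ratio ran from 1.03 (Faf2) to 1.68 (Nploc4). Nfe2l1 itself was at 567, 427 and 496 CPM in PCN, against 520.1, 502 and 607 CPM in Vehicle, 659.6, 677 and 643 CPM in HFD and 560.3, 628 and 639 CPM in Chow, with PCN 27 inside the range of the other libraries. None of 15 interferon and antigen presentation genes was highest in PCN 27. PCN 27 also had the highest total count, and the part of depth in these values was not tested.

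Vehicle against HFD compared injected with uninjected mice on the same diet. Of the 31 genes of the 26S particle, 20 were higher in all 3 Vehicle libraries than in all 3 HFD libraries, as were 11.8% of all 13375 genes. They were 6 of 7 alpha, 7 of 7 constitutive beta, 4 of 9 base and 3 of 8 lid genes, and outside the particle only Psme1 among the members was separated in this way. No member passed the adjusted threshold in the fit over 12 libraries (0% of all genes did; by DESeq2's Wald test 1.84% of genes passed and 0 members). At an unadjusted p under 0.05, 10 members were higher, all of them in the 26S particle, against 6.26% of all genes, and 0 members were lower, against 6.51%. The count of 10 of 48 became 4 without HFD 30 (8.5% of all genes under the same setting), 5 without Vehicle 15 (9.5%), 3 without Vehicle 23 (6.95%) and 16 without Vehicle 55 (15.02%). Median log2 fold changes were 0.33 for alpha, 0.39 for constitutive beta, 0.24 for base and 0.25 for lid genes, and -0.05 for immunoproteasome genes (0.60 without HFD 38), against 0.00 for all genes.

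Core subunits had the lowest p in this comparison. Psma7 had 48.3, 61.4 and 47.8 CPM in Vehicle, against 32.04, 31.1 and 32.5 CPM in HFD, a log2 fold change of 0.71 ± 0.22 (SE; edgeR adjusted p = 0.231). Psma4 (chromosome 9, 54950790 to 54958030) was at 89.8, 88.3 and 127 CPM in PCN, against 76.4, 90.4 and 68.9 CPM in Vehicle, 52.04, 49.6 and 48.3 CPM in HFD and 61.01, 68.4 and 38.9 CPM in Chow, and its log2 fold change was 0.65 ± 0.20. The lowest Vehicle library of each gene exceeded the highest HFD library. All 3 Chow libraries lay below all 3 Vehicle libraries for both genes, and for Psma4 Chow 19 was below every HFD library. Psmb3, a beta subunit without protease activity (chromosome 11, 97703399 to 97713500), was at 59.2, 52.9 and 85.9 CPM in PCN, against 50.6, 54.7 and 42.4 CPM in Vehicle, 30.9, 30.2 and 34.5 CPM in HFD and 40.5, 44.6 and 28.6 CPM in Chow, with a log2 fold change of 0.62 ± 0.20. Psmb1, another such subunit (chromosome 17, 15475021 to 15499751), was at 75.6, 70.9 and 103 CPM in PCN, against 65.4, 75.4 and 62.7 CPM in Vehicle, 50.8, 50.1 and 46.7 CPM in HFD and 60.4, 63.9 and 43.2 CPM in Chow, with 0.46 ± 0.17. Both were separated between Vehicle and HFD as well. In a fit of the 6 HFD and Vehicle libraries alone, Psma7 (edgeR adjusted p = 0.0407), Psma4 (0.0464) and Psmb3 (0.0499) passed the threshold, as did 1.51% of genes.

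Not every 26S gene had this order. Psmd11, a lid subunit (chromosome 11, 80428615 to 80473248), was at 106, 71.4 and 164 CPM in PCN, against 72.8, 70.9 and 90.8 CPM in Vehicle, 122, 119 and 88.9 CPM in HFD and 81.5, 78.3 and 135 CPM in Chow. HFD 4 and HFD 30 exceeded all 3 Vehicle libraries while HFD 38 lay within their range, and the log2 fold change, Vehicle minus HFD, was -0.50 ± 0.28 (edgeR adjusted p = 0.483). Psmd1, a base scaffold (-0.01 ± 0.20), and the lid subunits Psmd7 (-0.00 ± 0.17) and Psmd12 (0.01 ± 0.15) had log2 fold changes near 0.

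Gene length moved with Vehicle against HFD. The median log2 fold change was 0.17 in the shortest of 5 groups of genes by exonic length and -0.14 in the longest, and 24 of the 31 genes of the 26S particle are in the 2 shortest groups. With an offset for length fitted per library, 4 of 48 members had an unadjusted p under 0.05, as did 10.8% of all genes, 27 of the 31 genes still had a higher fitted level in Vehicle, and the medians were 0.25 for alpha, 0.30 for constitutive beta, 0.11 for base and 0.22 for lid genes. Fibroblast markers had a lower fitted level in Vehicle for 5 of 6 (median log2 fold change -0.62, 0 past the adjusted threshold). They summed to 341 to 485 CPM in Vehicle, against 510.3 to 914 CPM in HFD, with 6 of 6 detected in every library. The collagen genes Col3a1 (-1.62), Col1a1 (-1.32) and Col1a2 (-0.84) differed most, whereas Dpt had -0.39, Pdgfra -0.04 and Dcn 0.08. Erythroid markers had a higher fitted level in Vehicle for 5 of 5 (median log2 fold change 1.07, 0 past the adjusted threshold) and summed to 44.8 to 214 CPM in Vehicle, against 48.4 to 59.8 CPM in HFD. The 5 muscle markers summed to 122985 to 170760 CPM in Vehicle, against 200670 to 272640 CPM in HFD, most of it from Ttn, the gene of the giant protein titin. Of these 5 markers, 3 had a higher fitted level in Vehicle (median log2 fold change over the 5, 0.31). The other 2, Ttn (-0.85) and Acta1 (-0.05), had a lower one. Their part in the result was not tested. The HFD and Vehicle libraries also come from different deposited tables, which cannot be told apart from the groups.

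HFD against Chow asked what the diet did. Psmb5, which carries the chymotrypsin-like protease site of the constitutive core (chromosome 14, 54614119 to 54618022), had the lowest p. It was at 19.3, 19.7 and 20.9 CPM in PCN, against 17.5, 18.6 and 14.9 CPM in Vehicle, 13.5, 12.3 and 13.7 CPM in HFD and 20.4, 18.9 and 15.3 CPM in Chow. All 3 HFD libraries were below all 3 Chow libraries, and the log2 fold change, HFD minus Chow, was -0.45 ± 0.15 (SE), with an unadjusted p of 0.0129 and an edgeR adjusted p of 0.635. It was the only one of 47 tested members with an unadjusted p under 0.05 and a lower level, against 3.92% of all genes, and 0 were higher, against 3.78%. Without regard to direction that is 1 of 47, against 7.7% of all genes, and the count was 0 without HFD 30 (4.76%) or without Chow 8 (6.19%) and 2 without HFD 38 (8.71%). With the length offset the count was also 0 (6.79%), and the log2 fold change of Psmb5 was -0.28. No member and no gene passed the adjusted threshold (0% of 12686; DESeq2 passed 0.339% of genes and 0 members).

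The median difference between HFD and Chow was small in each part of the 26S particle. Alpha genes had a median log2 fold change of -0.10 (6 of 7 lower), constitutive beta genes -0.16 (7 of 7 lower), base genes 0.00 (4 of 9 lower) and lid genes 0.04 (4 of 8 lower), against 49.9% of all genes lower. The medians over all genes ran from -0.12 in the shortest of the 5 length groups to 0.10 in the longest, and with the length offset those of alpha and constitutive beta genes were -0.053 and -0.061. Without Chow 8 they were -0.013 and -0.11, and without Chow 17 -0.022 and -0.071. Psma7, Psmb5 and Psmg1 were the members that lay below Chow in all 3 HFD libraries, 3 of 47, against 6.86% of all genes, and 0 lay above Chow in all 3, against 6.14%. For Psma7 the values were 32.04, 31.1 and 32.5 CPM in HFD, against 37.4, 46.04 and 34.1 CPM in Chow, and the log2 fold change was -0.28 ± 0.14.

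The diet comparison changed when Chow 19 was left out. That library was the lowest of the 12 libraries for 20 of the 31 genes of the 26S particle, a position it held for 9.74% of all genes. Without it, 12 members had an unadjusted p under 0.05, as did 16.9% of all genes, and the medians were -0.24 for alpha and -0.32 for constitutive beta genes. In that fit 0 members passed the adjusted threshold, which 1.69% of all genes did. With Chow 19 included, slow-fibre markers had a lower fitted level in HFD for 7 of 7 tested (median log2 fold change -4.81). All 7 had an unadjusted p under 0.05, against 7.7% of all genes, and 0 passed the adjusted threshold. They summed to 50.6 to 65.3 CPM in HFD, against 52.6 to 773 CPM in Chow, with 7 of 8 markers analysed (CPM scaled within the HFD and Chow table). Macrophage markers had a higher fitted level in HFD for 12 of 12 (0.41). On the same scale they summed to 56.1 to 148 CPM in HFD, against 49.9 to 87.6 CPM in Chow. Erythroid markers had a lower fitted level in HFD for 5 of 5 (median log2 fold change -0.71, 0 past the adjusted threshold) and summed, on that scale, to 45.9 to 57.8 CPM in HFD, against 65.8 to 127 CPM in Chow. No marker of these lists was at 0 in a whole group, and their part in the result was not tested. In PCN and Vehicle, 1 of the 8 slow-fibre markers, Tpm3, was analysed. Scaled over all 12 libraries, Tpm3 was at 13.7, 16.5 and 20.1 CPM in HFD, against 15.9, 87.01 and 85.1 CPM in Chow. Chow 17 was thus as high as Chow 19 for that gene, and Chow 8 lay within the HFD range.

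Among the members, the chaperones that build the core and the base were low in count, and Psmg1 alone of the 7 was highest in PCN 27. Psmg1 and Psmg2 form a heterodimer that helps to build the alpha ring, as do Psmg3 and Psmg4. Psmg1 (chromosome 16, 95979933 to 95990960) was at 7.08, 6.99 and 7.88 CPM in PCN, against 4.82, 7.06 and 6.204 CPM in Vehicle, 4.14, 4.73 and 5.04 CPM in HFD and 5.996, 6.37 and 5.44 CPM in Chow. Its HFD values were all below its Chow values, and its log2 fold changes were -0.33 ± 0.18 for HFD minus Chow and 0.37 ± 0.19 for Vehicle minus HFD (edgeR adjusted p = 0.6696 and 0.419). Psmg2 was at 6.25, 7.31 and 6.05 CPM in PCN, against 5.58, 7.17 and 5.93 CPM in Vehicle, 5.98, 4.59 and 5.26 CPM in HFD and 6.89, 7.46 and 3.93 CPM in Chow, and neighbouring groups overlapped in each of the 3 comparisons. Psmg3 was at 1.21, 1.13 and 0.938 CPM in PCN, against 0.813, 1.09 and 1.08 CPM in Vehicle, 0.877, 0.847 and 0.6095 CPM in HFD and 1.05, 1.09 and 0.786 CPM in Chow. Psmg4 was at 1.72, 1.26 and 1.31 CPM in PCN, against 0.813, 1.304 and 1.19 CPM in Vehicle, 0.877, 0.918 and 1.05 CPM in HFD and 2.27, 1.86 and 0.898 CPM in Chow. Psmg4 was highest in Chow 8 and Chow 17, but Chow 19 lay among the HFD values, and its log2 fold change, HFD minus Chow, was -0.77 ± 0.40 (edgeR adjusted p = 0.658). All 4 core chaperones had a lower fitted level in HFD than in Chow, and none passed the test. Of the base chaperones, Psmd10 (gankyrin) was at 4.47, 3.21 and 3.99 CPM in PCN, against 4.76, 2.77 and 3.72 CPM in Vehicle, 3.59, 3.32 and 2.66 CPM in HFD and 2.75, 3.86 and 3.09 CPM in Chow. Psmd9 was at 10.5, 12.4 and 11.02 CPM in PCN, against 10.9, 9.02 and 10.6 CPM in Vehicle, 9.96, 9.25 and 7.42 CPM in HFD and 9.32, 11.6 and 8.76 CPM in Chow. For both, the groups overlapped in each of the 3 comparisons.

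Of the activators and the inhibitor, Psmf1 alone was highest in PCN 27 and Psme1 alone was separated between Vehicle and HFD. Psme1 and Psme2 are the alpha and beta subunits of the 11S activator, which interferon is known to induce. Psme1 (chromosome 14, 55578123 to 55581529) was at 18.9, 21.7 and 13.7 CPM in PCN, against 19.6, 22.2 and 25.95 CPM in Vehicle, 17.2, 19.5 and 18.95 CPM in HFD and 25.9, 30.3 and 16.7 CPM in Chow. Chow 8, Chow 17 and Vehicle 55 were the highest and PCN 27 the lowest, and the log2 fold change was -0.37 ± 0.20 for HFD minus Chow and -0.32 ± 0.21 for PCN minus Vehicle (edgeR adjusted p = 0.665 and 0.998). Psme2 was at 8.87, 8.32 and 6.19 CPM in PCN, against 8.13, 7.55 and 7.98 CPM in Vehicle, 4.304, 4.94 and 7.81 CPM in HFD and 6.73, 7.202 and 5.95 CPM in Chow. Psme2b, a near copy of Psme2 with 57 counts in the 12 libraries, was at 0.0638, 0.126 and 0.375 CPM in PCN, against 0.349, 0.163 and 0.378 CPM in Vehicle, 0.239, 0.353 and 0.443 CPM in HFD and 0.486, 0.386 and 0.112 CPM in Chow. The copies could share reads, so the values of both are uncertain. HFD 4 and HFD 30 had the lowest Psme2 values, and HFD 38 lay within the Vehicle range.

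Psme3, the nuclear activator PA28 gamma, was at 28.5, 34.4 and 34.9 CPM in PCN, against 31.3, 34.8 and 35.1 CPM in Vehicle, 29.3, 34.5 and 29.5 CPM in HFD and 29.98, 29.5 and 28.9 CPM in Chow, the smallest ratio of highest to lowest library among these genes. Psme4, the large activator PA200, was at 427, 532 and 581 CPM in PCN, against 589, 531 and 442 CPM in Vehicle, 602, 583 and 435 CPM in HFD and 544, 500.1 and 475 CPM in Chow. With 81.9 CPM per kb it was the most abundant of the activators, and its groups overlapped throughout. Psmf1, the inhibitor PI31, was at 9.25, 7.37 and 11.2 CPM in PCN, against 10.4, 6.68 and 8.25 CPM in Vehicle, 8.21, 7.91 and 7.87 CPM in HFD and 7.94, 7.72 and 7.41 CPM in Chow. Its highest values were those of PCN 27 and Vehicle 15.

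The immunoproteasome subunits had few reads, 639 counts for Psmb10, 285 for Psmb8 and 98 for Psmb9 over the 12 libraries. Each replaces one catalytic subunit of the constitutive core, Psmb8 for Psmb5, Psmb9 for Psmb6 and Psmb10 for Psmb7. Psmb8 (chromosome 17, 34197721 to 34201454) was at 1.85, 1.51 and 1.5003 CPM in PCN, against 1.28, 1.304 and 1.403 CPM in Vehicle, 0.478, 0.777 and 2.72 CPM in HFD and 0.972, 0.9003 and 2.02 CPM in Chow. Psmb9 (chromosome 17, 34181988 to 34187764) was at 0.638, 0.378 and 0.328 CPM in PCN, against 0.523, 0.652 and 0.216 CPM in Vehicle, 0.398, 0.212 and 0.831 CPM in HFD and 0.324, 0.257 and 1.07 CPM in Chow. HFD 38 and Chow 19 were the 2 highest libraries for both genes, and within HFD and within Chow the libraries differed more than the group means did. Psmb10 was at 3.64, 3.47 and 2.25 CPM in PCN, against 3.31, 2.99 and 3.83 CPM in Vehicle, 2.55, 2.12 and 4.32 CPM in HFD and 2.59, 4.31 and 3.199 CPM in Chow, with HFD 38 and Chow 17 the highest. Psmb9 had too few counts for the fits within one table. Psmb8 was higher in all 3 PCN libraries than in all 3 Vehicle libraries, as were 3.98% of all genes, with a log2 fold change of 0.28 ± 0.31 (edgeR adjusted p = 0.998). Psmb5 was the other of the 2 members so separated, and 0 members lay below Vehicle in all 3 PCN libraries, against 4.3% of all genes. For Psmb8 the log2 fold change, HFD minus Chow, was 0.08 ± 0.62.

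Per kilobase of the principal transcript, Psmb8 stood at 5.29, 4.23 and 3.96% in PCN, against 4.02, 3.86 and 5.18% in Vehicle, 1.95, 3.49 and 10.95% in HFD and 2.63, 2.63 and 7.31% in Chow of Psmb5. Psmb9 stood at 0.358, 0.181 and 0.133% in PCN, against 0.266, 0.307 and 0.131% in Vehicle, 0.271, 0.148 and 0.574% in HFD and 0.1904, 0.138 and 0.814% in Chow of Psmb6, and Psmb10 at 2.63, 2.08 and 1.25% in PCN, against 2.31, 1.83 and 3.02% in Vehicle, 2.13, 1.96 and 4.06% in HFD and 1.94, 3.12 and 3.48% in Chow of Psmb7. The constitutive subunit was thus the more abundant of each pair in every library, and HFD 38 and Chow 19 had the 2 highest shares of all 3 pairs. Of the constitutive partners, Psmb6 was at 105, 123 and 145 CPM in PCN, against 116, 125 and 97.2 CPM in Vehicle, 86.7, 84.6 and 85.4 CPM in HFD and 100.5, 110.4 and 77.3 CPM in Chow. Psmb7 was at 122, 148 and 159 CPM in PCN, against 127, 145 and 112 CPM in Vehicle, 106, 95.6 and 94.3 CPM in HFD and 118, 122 and 81.4 CPM in Chow. Both were lowest in Chow 19 and were separated between Vehicle and HFD.

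**Figure D5:**
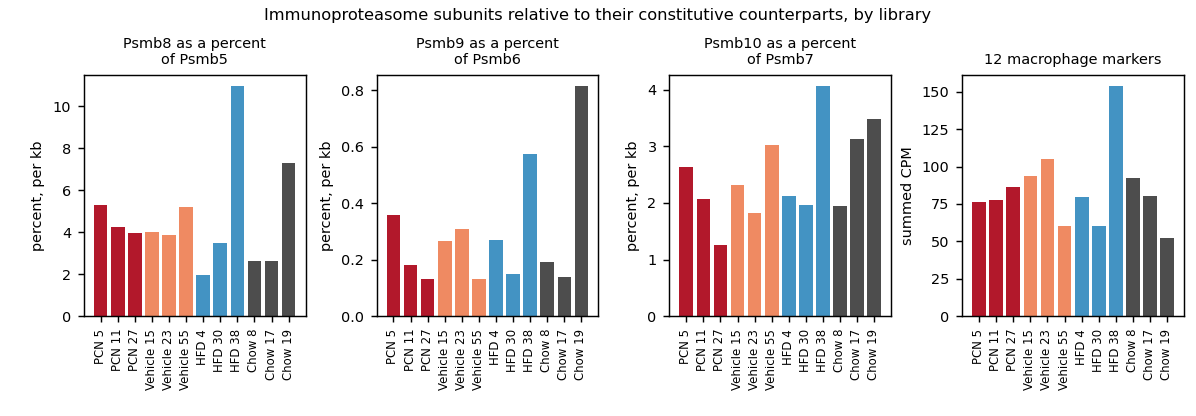
Level of each immunoproteasome subunit as a percent of the constitutive subunit it replaces, per kb of principal transcript, and the summed CPM of 12 macrophage markers, by library. HFD 38 and Chow 19 have the highest percents (10.95% and 7.31% for Psmb8), while their macrophage sums, 153.5 and 52.3 CPM, are the highest and the lowest of the 12.

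Macrophage markers were at summed levels of 76.4, 77.4 and 85.98 CPM in PCN, against 93.8, 105 and 60.5 CPM in Vehicle, 79.5, 60.3 and 154 CPM in HFD and 92.6, 80.3 and 52.3 CPM in Chow. HFD 38 thus had the highest and Chow 19 the lowest sum, although both were high in Psmb8 and Psmb9. The leukocyte list summed to 8.17, 7.69 and 6.09 CPM in PCN, against 5.63, 9.29 and 5.77 CPM in Vehicle, 9.72, 7.203 and 14.8 CPM in HFD and 6.89, 6.43 and 4.55 CPM in Chow, and its T cell marker Cd3e was at 0 in all HFD and all Vehicle libraries. In Chow 19, Tap1, the peptide transporter gene next to Psmb9, was at 3.99 CPM, against at most 1.88 CPM in the other libraries, and Irf1 at 9.598 CPM, against at most 9.06. B2m, the light chain of the class I complex, was highest in HFD 38, at 137 CPM, and lowest in Chow 19, at 53.4 CPM. The part of these cells in the immunoproteasome levels was not tested.

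Of the other genes of the pathway, 1 passed in the test for any difference. Maff, a small MAF protein that pairs with NRF1 and NRF2, was at 3.89, 6.68 and 3.66 CPM in PCN, against 4.94, 3.803 and 4.802 CPM in Vehicle, 13.9, 13.6 and 10.8 CPM in HFD and 26.4, 13.95 and 17.2 CPM in Chow. PCN and Vehicle lay below HFD and Chow without overlap (edgeR adjusted p = 0.00621), and for Vehicle minus HFD the log2 fold change was -1.50 ± 0.27 (adjusted p = 0.116). That split is also the one between the deposited tables, so injection and table cannot be told apart. Mafk, a second small MAF gene, was at 31.2, 25.2 and 37.3 CPM in PCN, against 29.2, 28.7 and 30.4 CPM in Vehicle, 36.8, 39.3 and 35.9 CPM in HFD and 64.99, 44.2 and 56.1 CPM in Chow, and its adjusted p was 0.0529. Of 16 NRF1 and NRF2 pathway genes, none passed in the comparisons of single pairs, with medians of 0.10 for PCN minus Vehicle, -0.17 for Vehicle minus HFD and 0.19 for HFD minus Chow.

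The 16 tested proteasome-associated factors had medians of 0.16, -0.01 and -0.01 in the same order, the 5 tested ubiquitin and E1 genes 0.09, -0.07 and -0.01, and the 9 muscle ubiquitin ligases 0.05, -0.26 and -0.05, with 0 passing in any comparison. Sem1, a small lid subunit outside the symbol rule, had 57.5, 62.97 and 58.5 CPM in Vehicle, against 45.3, 46.3 and 50.1 CPM in HFD. Rps27a, which encodes ubiquitin fused to a ribosomal protein, had 40.5, 44.3 and 34.3 CPM in Vehicle, against 25.9, 26.7 and 28.9 CPM in HFD. Both were separated between the groups, with unadjusted p of 0.0488 and 0.007299 and edgeR adjusted p of 0.387 and 0.2395. Fbxo30, a ligase of denervated muscle, had the opposite order, with 18.4, 13.9 and 20.7 CPM in Vehicle, against 27.3, 28.2 and 23.5 CPM in HFD (adjusted p = 0.231). The 15 interferon and antigen presentation genes tested had a median of -0.24 for Vehicle minus HFD, and 0 passed.

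Because PCN 27 was the highest library for all 31 genes of the 26S particle, their promoters were searched for 3 motifs in the 250 bases before the RefSeq start (GRCm38.p6), on both strands. Of the 50 members, 42 were in the promoter table, among them 25 of the 31 genes of the 26S particle. The core of the antioxidant response element, TGACNNNGC, to which NRF1 and NRF2 with a small MAF bind, was in 4 of the 25 promoters (16%), Psmb5, Psmb6, Psmc6 and Psmd12, and in 11.5% of 27025 genes. The CCAAT box was in 10 of the 25 (40%) and in 37.5% of all genes, and the interferon regulatory factor repeat (GAAA, any 2 bases, GAAA) was in 2 of the 25 (8%), in none of the 3 immunoproteasome promoters and in 3.46% of all genes. The 4 stretches below show the antioxidant response element core in capitals, each on its gene's strand, 5′ to 3′. Where the capitals begin with GC, the match is on the opposite strand.
Psmb5, chr14:54618008-54618067, minus strand: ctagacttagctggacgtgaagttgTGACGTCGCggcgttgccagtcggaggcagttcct
Psmb6, chr11:70525297-70525356, plus strand: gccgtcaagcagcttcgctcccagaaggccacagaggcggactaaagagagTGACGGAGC
Psmc6, chr14:45329574-45329633, plus strand: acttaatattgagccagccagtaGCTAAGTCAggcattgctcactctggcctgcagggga
Psmd12, chr11:107479278-107479337, plus strand: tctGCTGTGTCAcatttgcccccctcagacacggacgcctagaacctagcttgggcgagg
The ratio of PCN 27 to the highest other library was 1.02 for Psmb5, 1.16 for Psmb6, 1.34 for Psmc6 and 1.31 for Psmd12. Its median over the 31 genes was 1.41. These ratios come from 1 library, and a part of the motif in them was not tested.

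The members named least above were Psma2, Psmc6 and Psmd13, the lowest per kilobase of their parts, and the remaining 26S genes. Psma2 (chromosome 13, 14613240 to 14674236) was at 51.6, 41.9 and 72.5 CPM in PCN, against 44.03, 52.3 and 44.8 CPM in Vehicle, 39.8, 37.8 and 37.4 CPM in HFD and 46.7, 45.7 and 32.9 CPM in Chow. Psmc6 (chromosome 14, 45329788 to 45349705) was at 104, 76.5 and 139 CPM in PCN, against 93.1, 101 and 87.3 CPM in Vehicle, 95.6, 82.6 and 79.02 CPM in HFD and 81.9, 84.4 and 70.9 CPM in Chow. Psmd13 (chromosome 7, 140881968 to 140898643) was at 31.1, 35.2 and 42.7 CPM in PCN, against 29.7, 32.9 and 30.4 CPM in Vehicle, 27.3, 24.4 and 21.9 CPM in HFD and 26.8, 31.4 and 23.2 CPM in Chow. PCN 27 was highest for all 3, and Psma2 and Psmd13 were separated between Vehicle and HFD while Psmc6 overlapped. Over the 31 genes of the particle, PCN minus Vehicle ran between 0.03 (Psma3) and 0.62 (Psmd4) on the log2 scale, and Vehicle minus HFD between -0.50 (Psmd11) and 0.71 (Psma7). Psma8 had 7 counts in all 12 libraries. Psmc3ip, a meiotic recombination factor, had 137 counts, and Psme3ip1, which binds PA28 gamma, was at 13.1, 18.02 and 22.6 CPM in PCN, against 18.8, 20.4 and 15.2 CPM in Vehicle, 15.3, 13.6 and 11.97 CPM in HFD and 14.7, 11.4 and 12.97 CPM in Chow.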

How the data were processed

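The deposited data are unnormalized read counts by Ensembl identifier, in 1 table for HFD and Chow (24093 genes) and another for PCN and Vehicle (24453 genes). HISAT2, HTSeq, DESeq2, GRCm38 and mm10 are listed in the submitters' processing notes. With tool versions and strandedness not given in the sources used here, reads of overlapping genes cannot be separated. The gene coordinates are as deposited and equal those of GENCODE M21 (GRCm38) for 49 of the 50 members, Psmb9 being the exception. The authors' own comparison columns were not used.

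Counts were fitted with edgeR 4.0.16 (TMM, default expression filter with a minimum count of 10, robust quasi-likelihood F test, Benjamini-Hochberg adjustment over all genes tested). HFD with Chow and PCN with Vehicle were fitted within their tables. Vehicle with HFD and the test for any difference used the 21976 genes shared by both tables in 1 fit of 12 libraries. The SE of a log2 fold change is its size over the square root of the F statistic. Of the 50 members, 47 passed the filter within each table and 48 in the joint fit. Levels per kilobase use the length of the principal protein-coding transcript of GENCODE M21. Alternatives were DESeq2 1.42.0, its size factors, library totals, no filter, a length offset, other sets of libraries and each library left out in turn. The fits were tested on simulated counts. Within groups, chi-square per gene was 19.5 to 108, so no library was a copy of another.

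Members and gene lists were chosen with earlier results of these data known. Values in every library are given for the 4 members with the lowest p in each comparison, the catalytic pairs, the activators, the inhibitor, the core chaperones and the members at either end of a part's level per kilobase. Psmd1, Psmd7, Psmd11, Psmd12, Psma8, Psmc3ip, Psme3ip1, Trim63, Nfe2l1, Irf1 and B2m, the PCN 27 and Chow 19 results and the pathway genes highest in PCN 27 were singled out after their values were seen. From the other lists the 2 genes with the lowest p in a comparison may be named.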

Additional observations from a re-analysis of the deposited data

How the results depend on the processing

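No paired analysis was possible because every library has a number of its own and nothing pairs them. The fold changes of the 4 members with the lowest p in each comparison kept their direction under every alternative run. Medians close to 0 did not: those of base and lid genes for HFD minus Chow, of activators for PCN minus Vehicle and of immunoproteasome genes in all 3 comparisons changed sign between alternatives. The count of members past the adjusted threshold was 0 for PCN minus Vehicle and HFD minus Chow under every alternative run. For PCN minus Vehicle the share of all genes was 0.0859% without the filter and 0% otherwise. For HFD minus Chow that share was 1.69% without Chow 19, 0.984% without the filter, 0.339% by DESeq2, 0.0535% without Chow 8 and 0% otherwise. For Vehicle minus HFD the count of members was 3 with only those 6 libraries (1.51%). It was 0 otherwise (1.84% by DESeq2, 0.0091% without the filter, else 0%). For any difference among the 4 groups it was 10 by DESeq2 (5.73% of all genes), 4 without the filter (Psma7, Psma4, Psmb3 and Psmd2; 0.842%) and 0 to 6 with 1 library left out (6 without PCN 11, 1.35%; 3 without Chow 19, 1.58%; 1 without Chow 17, 0.553%; and 0 otherwise).

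Counts at an unadjusted p under 0.05 moved more, and so did the share of all genes, given in parentheses. For PCN minus Vehicle they were 4 by DESeq2 (2.59%), 9 without the filter (4.11%), 1 with the length offset (2.91%), 4 in 1 fit of 12 libraries (4.36%) and 0 (without PCN 27 or any 1 Vehicle library) to 12 (without PCN 11, 7.59%) with 1 library left out. For Vehicle minus HFD they were 23 with library totals (16.4%), 4 with the length offset (10.8%), 21 with only those 6 libraries (17.8%) and 3 (without Vehicle 23, 6.95%) to 16 (without Vehicle 55, 15.02%). For HFD minus Chow they were 2 without the filter (7.89%), 0 with the length offset (6.79%) and 0 (without HFD 30 or Chow 8) to 12 (without Chow 19, 16.9%). For any difference they were 30 with library totals (18.1%), 27 without the filter (10.9%) and 12 with the length offset (13.9%). With 1 library left out they ran from 11 (without PCN 27, 13.1%) to 27 (without PCN 11, 18.2%). The cause was not tested.

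Scaling by library totals moved the median of all genes to 0.16 for Vehicle minus HFD. With that scaling the medians were 0.50 for alpha, 0.56 for constitutive beta, 0.42 for base and 0.42 for lid genes, 0.37 for base chaperones, 0.47 for core chaperones and 0.28 for activators and the inhibitor. The core chaperone median was 0.13 with the length offset. With 1 library left out, the immunoproteasome median ran from -0.79 (without HFD 38) to 0.20 for HFD minus Chow and from -0.32 to 0.60 (without HFD 38) for Vehicle minus HFD. The lid median ran from -0.032 to 0.069 for HFD minus Chow and from 0.18 to 0.29 for Vehicle minus HFD, the activator median from 0.079 to 0.20 for Vehicle minus HFD, and the base chaperone median from 0.035 to 0.20 for PCN minus Vehicle. Depth limits Psmb9, Psma8, Psme2b, Psmg3 and Psmc3ip, with 7 (Psma8) to 189 (Psmg3) counts over the 12 libraries.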
